A study of Rattus norvegicus with 6 samples.

Results

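The GC-rich tags of rat liver were small RNA sequences of 20 to 25 nt with a G+C fraction of 0.70 or more, which did not end in CCA, and which had at least 30 reads summed over the 6 libraries. A tag is 1 distinct read sequence with its number of reads. By this rule 4062 of the 1528721 tags of the series were GC-rich, which is 0.266% of the tags and 1.75% of the clean reads. The rule used sequence, length and the reads summed over all libraries, and it did not use the groups. The values were set beside those of 8890 tags of the same lengths, read minimum and end rule with a G+C fraction of 0.40 to 0.55, a range that holds many mature miRNAs.

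The study compared the livers of 3 rats with nonalcoholic fatty liver disease (NAFLD) and 3 normal rats, and each library was made from the liver of 1 rat. All were Wistar rats labelled as 4 months old, an age that differs from the one in the study's methods, and the methods describe male animals. The NAFLD rats had been fasted for 48 h and for 7 days then ate a feed that was 80% starch, while the normal rats ate standard feed holding 35% starch. The livers of the NAFLD group were picked among those with more hepatic triglyceride and those of the normal group at random, so the groups differed in fasting, diet and choice of liver together, and these cannot be told apart.

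The libraries held 11601058 to 11880695 clean reads. At this depth 3 reads correspond to 0.253 to 0.259 TPM, the reads of a tag per 1000000 clean reads, and the Wilson 95% interval of a GC-rich share of 2.90% ran from 2.89% to 2.91%, which covers counting error only. As a check of the tissue, the most abundant tag of the series was miR-122-5p, the miRNA typical of hepatocytes, at 131874 to 141180 TPM in NAFLD and 183119 to 200547 TPM in normal liver. The libraries formed 2 sets that crossed the groups. They were defined by the substitution rate of the reads alone and are called technical sets for short. What made them differ was not tested. The rate of single-base substitutions was taken as a median over abundant tags and a mean over the first 20 read positions. In NAFLD 2, NAFLD 3 and normal 2 it was 0.135% to 0.150%, and in NAFLD 1, normal 1 and normal 3 0.0466% to 0.0556%. The sets differed most at positions 3, 4 and 13. At position 3 the rate was 0.803% to 0.863% in the first 3 libraries and 0.0327% to 0.0364% in the others. It was not higher at every position, and at position 2 NAFLD 1 had the highest rate, 0.124%. Ratios of shares and group levels within the 2 sets, called the lower-rate and the higher-rate set, are given where they differ from each other by over 1.5 times.

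Small RNA libraries cut from a gel hold miRNAs, which are processed from hairpins by Drosha and Dicer and have nearly fixed ends, together with pieces of longer RNAs such as ribosomal and transfer RNA, whose ends vary. Mature tRNAs end in CCA, which the rule left out. Runs of G and C pair strongly, and such sequences are known to be reverse transcribed and amplified less evenly than others.

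Most GC-rich reads belonged to a few sets of overlapping tags. Tags that shared any 16 bases were joined into groups, which are numbered here by their reads. The 8 groups with the most reads are shown because they held 75.3% of all GC-rich reads, in 2028 of the 4062 tags. Each was merged from its overlapping tags, and capitals mark the most abundant tag of the group.
Group 1: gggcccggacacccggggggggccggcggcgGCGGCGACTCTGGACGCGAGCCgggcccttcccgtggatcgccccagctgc
Group 2: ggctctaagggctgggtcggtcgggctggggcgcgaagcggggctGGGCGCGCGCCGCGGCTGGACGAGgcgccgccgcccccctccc
Group 3: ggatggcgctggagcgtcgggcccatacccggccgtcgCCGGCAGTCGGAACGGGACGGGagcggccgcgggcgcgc
Group 4: ctccTCCCTCCGGGGGGGTGTCGGCGgg
Group 5: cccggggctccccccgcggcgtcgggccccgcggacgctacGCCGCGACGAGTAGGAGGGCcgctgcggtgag
Group 6: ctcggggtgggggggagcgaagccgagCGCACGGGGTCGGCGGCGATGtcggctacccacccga
Group 7: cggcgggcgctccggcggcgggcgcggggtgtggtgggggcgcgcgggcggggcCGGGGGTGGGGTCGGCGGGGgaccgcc
Group 8: ttaagAGGGACGGCCGGGGGCATTCGta

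The merged sequences of groups 4 and 8 were 28 bases long, and the other 6 were 64 to 88 bases long. The 1373 tags lying on a merged sequence without a mismatch held 87.4% to 99.8% of the reads of their group. No annotated sequence of ribosomal or transfer RNA was used here, so the groups are known by their sequence only.

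The GC-rich tags took a larger share of the reads in each NAFLD liver than in any normal liver. Their share of clean reads was 2.90%, 2.17% and 1.86% in NAFLD 1, 2 and 3 and 1.32%, 1.28% and 0.995% in normal 1, 2 and 3. The lowest NAFLD library was NAFLD 3 and the highest normal library was normal 1, and the groups did not overlap. The means were 2.31% ± 0.530 (SD, n = 3) and 1.20% ± 0.179 (SD, n = 3), which is a difference of 1.11 percentage points and a ratio of 1.93. The two-sided exact permutation test gave p = 0.1, the smallest that 3 libraries against 3 allow, and an adjusted p of 0.125 over the 10 comparisons made this way, so the comparison could not pass a threshold of 0.05. In these bulk samples fewer cells of a type and less RNA per cell cannot be told apart.

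The higher share was seen within both technical sets. In the set with the lower substitution rate the GC-rich share was 2.90% in its NAFLD library against a mean of 1.16% in its 2 normal libraries, a ratio of 2.50. In the other set the mean was 2.02% in 2 NAFLD libraries against 1.28% in 1 normal library, a ratio of 1.58. The difference was 1.74 percentage points in the first and 0.738 in the second. With 1 library on a side these values have no test.

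The tags with G+C of 0.40 to 0.55 in sum had a lower share in the NAFLD libraries. They took 59.0%, 61.3% and 61.2% of clean reads in NAFLD liver and 68.5%, 72.1% and 72.8% in normal liver, a ratio of 0.850. The 10 most abundant tags of the series lay in this range or below it and took 58.9% to 61.4% of the reads in NAFLD and 69.9% to 73.2% in normal liver. Without those 10 tags the share at G+C of 0.40 to 0.55 was 15.5% ± 0.689 (SD, n = 3) in NAFLD and 13.9% ± 0.806 (SD, n = 3) in normal liver, a ratio of 1.12 with overlapping groups. Without the same 10 tags all other tags together took 39.9% and 28.8%, a ratio of 1.39. The ratio of 1.93 for the GC-rich tags is therefore to be read against 1.39 for all less abundant tags.

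Relative to the tags with G+C of 0.40 to 0.55, the GC-rich tags stood at -4.35, -4.82 and -5.04 on the log2 scale in NAFLD liver and at -5.69, -5.81 and -6.19 in normal liver. The groups did not overlap, and the mean difference was 1.17 with an exact permutation p of 0.1. When the comparison tags left out the 10 most abundant tags of the series the difference was 0.77. When tags with G+C of 0.55 to 0.70 took their place it was 0.17 with an exact p of 0.6, and the groups overlapped. No difference between the GC-rich tags and the tags just below them in G+C was thus detectable with these libraries, and nothing particular to a G+C of 0.70 or more was shown.

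The ratio of NAFLD to normal shares over classes of G+C at 20 to 25 nt was then followed. The 10 most abundant tags were left out of every class. The ratio was 1.03 at 0.40 to 0.45, 1.18 at 0.45 to 0.50, 1.43 at 0.50 to 0.55, 1.56 at 0.55 to 0.60, 1.68 at 0.60 to 0.65 and 2.02 at 0.65 to 0.70. Within the GC-rich tags it was 1.99 at 0.70 to 0.75, 1.64 at 0.75 to 0.80 and 2.14 at 0.80 and above, the last being 2.99 in the lower-rate set and 1.55 in the higher-rate set. The NAFLD libraries were all above the normal libraries in each class from 0.50 upwards with the exception of 0.60 to 0.65. At the AT-rich end, below 0.30, the ratio was 1.29, also without overlap. The classes share libraries and depth, and the order of the ratios is a description without a test.

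The values just inside and just outside the limits of the rule are given as a description. The 884 GC-rich tags with G+C under 0.75 had a ratio of 1.99, and the 1283 tags with G+C of 0.65 up to 0.70 a ratio of 2.02. The 408 GC-rich tags with 30 to 34 reads had a ratio of 2.62, and the 494 tags just outside with 25 to 29 reads a ratio of 2.40.

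From 22 to 25 nt the ratio was larger for longer GC-rich tags, a description without a test. Tags of 22 nt, the commonest length with 22.2% of the GC-rich reads, took 0.618%, 0.403% and 0.420% of clean reads in NAFLD liver and 0.294%, 0.337% and 0.262% in normal liver, a ratio of 1.61. Tags of 25 nt took 0.275%, 0.256% and 0.213% against 0.0755%, 0.142% and 0.0677%, a ratio of 2.61. The ratio was 1.76 at 21 nt, 1.91 at 23 nt and 2.13 at 24 nt, and in each of these lengths the groups were apart. At 20 nt the ratio was 2.11 and the groups overlapped, with 0.294% in NAFLD 3 and 0.329% in normal 1. In the lower-rate set the ratio was 2.23, 2.72, 3.03 and 3.84 at 22, 23, 24 and 25 nt, and in the higher-rate set 1.22, 1.34, 1.46 and 1.65, so the order by length held in both. Each of the 6 lengths held between 9.77% and 22.2% of the GC-rich reads.

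The 4062 GC-rich tags fell into 253 groups that shared 16 bases. Of these, 152 groups had 2 or more tags and held 3961 tags, and 101 tags with 0.703% of the GC-rich reads stood alone. The 3 groups with the most reads held 54.3% of the GC-rich reads. Tags of 1 group share their sequence and are not independent of each other. Among the 54 groups with 10 or more tags, 53 had a higher mean in NAFLD, 24 had all NAFLD libraries above all normal ones and none had all below. Of all single tags tested, of any G+C, 18.9% had all NAFLD libraries above and 90.4% had a log2 fold change above 0. A group is a sum over 10 or more tags, so single tags are not a like background for these counts. The ratios of these 54 groups ran from 0.809 to 5.02 with a median of 2.00.

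Group 1 was the largest, with 555 tags and 27.8% of the GC-rich reads. Its summed level was 7685, 4856 and 5339 TPM in NAFLD liver and 4623, 4172 and 2641 TPM in normal liver. The groups of libraries did not overlap, the lowest NAFLD value being close to the highest normal one, and the ratio of 1.56 was the smallest among the 8 largest groups. It was 2.12 in the lower-rate set and 1.22 in the higher-rate set.

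Group 2, with 434 tags, reached 5204, 3920 and 3112 TPM in NAFLD and 2059, 2206 and 1713 TPM in normal liver, a ratio of 2.05, with 2.76 in the lower-rate set and 1.59 in the higher-rate set. Group 3, with 301 tags, reached 2682, 2539 and 1562 TPM against 1132, 974 and 828 TPM, a ratio of 2.31. Both were apart by more than the spread among the normal libraries. For groups 1, 2, 3, 6, 7 and 8 the exact permutation p was 0.1, with an adjusted p of 0.125.

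Group 4 did not follow the groups of rats. Its 52 tags stood at 1901, 483 and 1690 TPM in NAFLD 1, 2 and 3 and at 126, 1072 and 617 TPM in normal 1, 2 and 3. NAFLD 2 lay below 2 normal libraries, and the ratio of 2.25 had an exact permutation p of 0.3. The ratio was 5.12 in the lower-rate set and 1.014 in the higher-rate set. Group 5, with 199 tags, stood at 1509, 1372 and 747 TPM against 777, 505 and 507 TPM, where NAFLD 3 lay just below normal 1. Its ratio was 2.03 with an exact permutation p of 0.2.

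The smaller groups were alike in size of ratio. Group 6, with 162 tags, reached 1075, 1060 and 721 TPM in NAFLD and 456, 486 and 576 TPM in normal liver, a ratio of 1.88. Group 7, with 256 tags and the highest G+C among the 8 merged sequences, reached 927, 1003 and 553 TPM against 336, 409 and 460 TPM, a ratio of 2.06. Group 8, with 69 tags, reached 653, 779 and 366 TPM against 321, 265 and 334 TPM, a ratio of 1.95. In all 3 the NAFLD library nearest to the normal ones was NAFLD 3.

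The ends of the tags set the groups apart from each other. In group 4, 86.9% of the reads on the merged sequence ended at 1 position, its base 26, and 54.1% began at base 5. In group 1, 28.8% ended at base 53 and 25.2% began at base 32, with 58 different starts and 57 different ends. In group 7 no start held over 9.88% of the reads, and its commonest end held fewer. Group 4 thus had 1 sharp 3′ end, and group 7 had none.

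Reads of group 1 differed in ratio with their 3′ end. Those ending at base 53, the end of its most abundant tag, stood at 2131, 715 and 1163 TPM in NAFLD liver and at 1539, 1073 and 858 TPM in normal liver. The groups overlapped and the ratio was 1.16, with 1.78 in the lower-rate set and 0.875 in the higher-rate set. Those ending 1 base further had a ratio of 1.58, also with overlap, and 2.50 and 1.06 within those sets. Those ending 3 bases further, at base 56, stood at 329, 225 and 233 TPM against 72.6, 140 and 69.1 TPM, a ratio of 2.79 without overlap, and 4.64 and 1.64 within the sets. Those ending at base 57 had a ratio of 1.26, so the ratio did not climb with each added base. In group 3, reads ending at base 53 stood at 182, 151 and 91.6 TPM against 13.1, 48.7 and 14.6 TPM, a ratio of 5.56. Normal 2 stood apart from the other normal libraries here, and the ratio was 13.1 in the lower-rate set and 2.49 in the higher-rate set. Those ending at base 60, its commonest end, had a ratio of 1.78. In group 2, reads that began at base 56 stood at 201, 203 and 39.7 TPM against 43.95, 18.53 and 15.99 TPM, a ratio of 5.66 that rested on NAFLD 1 and NAFLD 2. These positions were singled out after their values were seen and have no test.

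Single tags were tested with edgeR's quasi-likelihood test on the counts with the total clean reads as library size, fitted over the 19492 tags of any kind that passed the filter on low counts. Of the GC-rich tags 2572 were tested and none passed an adjusted p of 0.05, against a background of 0% of all tags tested. The smallest adjusted p was 0.499. DESeq2 called 1 GC-rich tag, higher in NAFLD, beside 18 of all 19492 tags, and limma on log2(TPM + 1) called 0. At an unadjusted p under 0.05, 417 GC-rich tags (16.2%) were higher in NAFLD and 0 lower, beside 9.48% higher and 0.0308% lower over all tags tested. Among the 6066 tested tags with G+C of 0.40 to 0.55, 106 (1.75%) were higher and 4 lower.

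The median log2 fold change of the GC-rich tags was 1.03. It was 0.90 over all tags tested and 0.61 over the tags with G+C of 0.40 to 0.55. Above 0 were 2461 of 2572 GC-rich tags (95.7%), 90.4% of all tags tested and 83.4% of the comparison tags. Scaling set the zero point of these values. With TMM factors, which scale on the bulk of tags and not on total reads, the medians were 0.31, 0.23 and -0.06. The GC-rich tags kept the highest of the 3 medians under both scalings, and most of the distance from 0 came and went with the scaling. With TMM factors, 109 of the 2572 GC-rich tags were higher in NAFLD at an unadjusted edgeR p under 0.05 and 3 were lower. Over all 19492 tags tested 510 were higher and 250 lower. Among the 6066 tags with G+C of 0.40 to 0.55, 10 were higher and 172 lower.

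With the technical set as a covariate 23 of the 2572 GC-rich tags (0.894%) passed an adjusted p of 0.05 in edgeR, all higher in NAFLD. Over all tags tested 0.959% were higher and 0.0103% lower, so the share of GC-rich tags called was near the background. Of the 23, 4 lay in group 3, 4 in group 5, 3 in group 1, 2 in group 2 and 2 in group 7. Groups 4, 6 and 8 had none.

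In 779 of the 2572 tested GC-rich tags (30.3%) the 3 NAFLD values all exceeded the 3 normal values by TPM, and in 0 all lay below. Over all tags tested the shares were 18.9% above and 0.585% below, and among tags with G+C of 0.40 to 0.55 they were 6.59% and 1.35%. Over all 4062 GC-rich tags, low ones included, 1097 were apart upwards and 2 downwards, which have no background counted without the filter. Of the 4062, 3847 had a higher mean TPM in NAFLD. A log2 fold change above 0 was found for 44606 of all 50201 tags with at least 15 reads. It was found for 7358 of the 8890 tags with G+C of 0.40 to 0.55.

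The most abundant GC-rich tags did not separate the groups of rats. The tag gcggcgactctggacgcgagcc of group 1 had the highest mean and stood at 973, 254 and 534 TPM in NAFLD liver and at 688, 547 and 390 TPM in normal liver. NAFLD 2 was the lowest of the 6 libraries, the means were 587 ± 363 (SD, n = 3) and 541 ± 149 (SD, n = 3), and the log2 fold change was 0.12 ± 0.52 (SE) with an edgeR adjusted p of 0.910. The 1-base longer ggcggcgactctggacgcgagcc stood at 586, 173 and 270 TPM against 427, 273 and 275 TPM, a log2 fold change of 0.08. All 10 most abundant GC-rich tags overlapped between the groups, and together they held 15.5% of the GC-rich reads. Most tags of any kind overlapped too: over all tags tested 18.9% had all NAFLD libraries above and 0.585% all below.

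The first of these tags was also found with 1 more G at its 3′ end, as gcggcgactctggacgcgagccg. This form stood at 390, 145 and 229 TPM in NAFLD and at 90.9, 217 and 113 TPM in normal liver, a log2 fold change of 0.86 ± 0.52 (SE). The groups overlapped here as well. The other 3 tags of group 1 among the 10 most abundant had log2 fold changes of 0.34 to 0.42.

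Groups 2 and 4 supplied the other abundant tags. The tag gggcgcgcgccgcggctggacgag of group 2 stood at 538, 129 and 369 TPM against 99.6, 343 and 196 TPM. The 1-base shorter ggcgcgcgccgcggctggacgag stood at 383, 99.6 and 261 TPM against 46.3, 164 and 108 TPM. In both, NAFLD 2 and normal 1 were the low libraries. The tag tccctccgggggggtgtcggcg of group 4 stood at 839, 177 and 713 TPM against 56.5, 523 and 359 TPM, with the same 2 libraries low. The 1-base longer ctccctccgggggggtgtcggcg stood at 535, 100 and 475 TPM against 15.2, 217 and 119 TPM, a log2 fold change of 1.66 ± 1.03 (SE) and an edgeR adjusted p of 0.688.

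Of the most abundant tags of the other groups, those of groups 3 and 7 were apart between the groups of rats. The same was found upwards for 18.9% of all tags tested and 30.3% of the GC-rich tags tested. The tag ccggcagtcggaacgggacggg of group 3 stood at 75.8, 79.3 and 46.9 TPM in NAFLD and 32.1, 36.3 and 29.6 TPM in normal liver, apart in every library, with a log2 fold change of 1.04 ± 0.37 (SE) and an edgeR adjusted p of 0.499. The tag cgggggtggggtcggcgggg of group 7, which has a G+C fraction of 0.90, stood at 63.5, 59.3 and 27.5 TPM against 19.5, 13.8 and 27.0 TPM, where NAFLD 3 lay just above normal 3. The tag cgcacggggtcggcggcgatg of group 6 was nearly equal in the NAFLD libraries at 110, 110 and 108 TPM and spread over 37.0, 67.2 and 108 TPM in the normal ones.

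The tags gccgcgacgagtaggagggc of group 5 and agggacggccgggggcattcg of group 8 overlapped between the groups. The first stood at 90.0, 62.5 and 45.8 TPM against 71.8, 21.8 and 29.4 TPM. The second stood at 77.6, 60.5 and 31.7 TPM against 39.4, 18.5 and 43.3 TPM.

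The 3 GC-rich tags with the smallest p for a higher level in NAFLD all came from group 5 and were rare. The tag ccgcggcgtcgggccccgcggacg had 31, 23 and 16 reads in NAFLD liver and 1, 2 and 1 in normal liver. The tag cgcggcgtcgggccccgcggacgct had 34, 55 and 33 reads against 2, 4 and 1. The tag gcggacgctacgccgcgacgagtag had 38, 51 and 31 reads against 5, 7 and 4. Their log2 fold changes were 4.03 ± 0.69, 4.07 ± 0.70 and 2.90 ± 0.53 (SE), each with an edgeR adjusted p of 0.499. With the technical set as a covariate the first and second had an adjusted p of 0.0469 and the third of 0.0509.

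No GC-rich tag was lower in NAFLD at an unadjusted p under 0.05 in edgeR when scaled by total clean reads. The 3 with the smallest p in that direction were ttcgtttcccgggcggcgcacc, ggcggcggcgactctggacgc and ggggttcccggggttcgggg, all overlapping between groups. The last had 256, 14 and 92 reads in NAFLD and 1458, 77 and 7 in normal liver. Its lower mean in NAFLD rested on normal 1: its log2 fold change was -2.07 with that library and 1.55 without it.

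The GC-rich tags held more G than C, as the comparison tags did. Over their bases 48.7% were G and 32.6% C, against 31.0% and 16.5% in the tags with G+C of 0.40 to 0.55. More G than C was present in 3125 tags (76.9%), against 73.5% of the comparison tags. The first base was G in 42.9% and C in 40.1% of the tags, whereas it was T in 42.6% of the comparison tags, T standing for the U with which many miRNAs begin. A run of 4 G (GGGG) was present in 1765 GC-rich tags (43.5%) against 4.24% of the comparison tags. The run CCCC was present in 513 (12.6%) against 1.48%, and CGCG in 1677 (41.3%) against 2.42%. Each run was searched in the tag as read, and tags may hold more than 1 of them. Such runs are more frequent where G and C make up most bases, which the rule fixed.

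The ratio of NAFLD to normal shares was taken by these features, as a description. Tags with GGGG had a ratio of 2.04 and tags without it 1.86. Tags with CCCC had a ratio of 2.47 and tags without it 1.90. Tags with CGCG had the lower ratio, 1.79 against 2.10. In these 6 classes the NAFLD libraries lay above the normal ones. By first base the ratio was 2.15 for C, 1.78 for G and 1.91 for T without overlap, and 1.91 for A, where NAFLD 3 lay below normal 1. Over these 10 classes the ratio was 2.20 to 3.74 in the lower-rate set and 1.41 to 2.02 in the higher-rate set.

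The exact reverse complement was looked for. None of the 4062 GC-rich tags had its reverse complement among the tags of any library. For the 8890 comparison tags 2 reverse complements with 1 read each were found. Pieces of the opposite strand with other ends were not searched for.

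Few GC-rich tags were miRNAs. Of the 724 rat mature miRNAs in the RefSeq table (GRCr8), 14 have 20 to 25 nt and G+C of 0.70 or more. Of these 11 had 0 reads, miR-760-3p had 2, miR-324-3p had 1 and miR-1247-5p had 81. The last was the 1 mature miRNA among the GC-rich tags and is shown with its seed, bases 2 to 8, in capitals. It lies at chr6:135105931-135105952 on the minus strand of GRCr8.
rno-miR-1247-5p: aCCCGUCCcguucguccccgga

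It had 20, 9 and 17 reads in NAFLD liver and 10, 7 and 18 in normal liver. The groups overlapped, and the log2 fold change was 0.41 ± 0.64 (SE) with an edgeR adjusted p of 0.826. Only 1 further GC-rich tag lay inside a RefSeq hairpin, that of Mir139. The 2 tags made up 0.0492% of the GC-rich tags and 0.00896% of their reads. Among the tags with G+C of 0.40 to 0.55, 4.00% lay inside a hairpin and carried 71.4% of the reads.

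A match to the RefSeq windows around gene starts, from 250 bases before to 50 after, was found for 100 GC-rich tags, and 3960 matched neither these 33469 windows nor a hairpin. The matched tags held 1.46% of the GC-rich reads. Of the 100, 73 matched the strand opposite to Rn45sl1 and Rn45sl2, whose windows on chromosome 11 of GRCr8 hold the same 73 tags. Their summed level was 339, 353 and 191 TPM in NAFLD and 214, 115 and 156 TPM in normal liver, with overlap between NAFLD 3 and normal 1. A further 19 matched the windows of the lncRNAs LOC134486046 and LOC134486048 on chromosome 3, on the same strand. A match to a window does not show that a tag came from that gene. Ribosomal RNA sequences were not searched. The 73 tags and the 19 tags lay outside the 8 largest groups.

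Some GC-rich tags were near copies of other tags, and most of these were found in 1 technical set. Of the 4062 tags, 829 (20.4%) differed by 1 base from a tag of the same length with at least 5 times the reads. They held 6.91% of the GC-rich reads. Among the 8890 tags with G+C of 0.40 to 0.55, 4213 (47.4%) were such near copies, so they were not particular to the GC-rich tags. Those held 5.82% of the reads of the comparison tags, and 26.1% when the 10 most abundant tags of the series were left out. Summed over NAFLD 1, normal 1 and normal 3, 739 of the 829 had 3 reads or fewer, and in the other 3 libraries 4 did. For the other 3233 tags these numbers were 68 and 11.

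The near copies made up 12.8%, 13.4% and 13.8% of the GC-rich reads in NAFLD 2, NAFLD 3 and normal 2, and 0.459%, 0.267% and 0.509% in NAFLD 1, normal 1 and normal 3. The number of tags found followed the same sets. A library of the first set held 3977 to 4044 of the GC-rich tags and one of the second 3088 to 3321. Without the near copies the numbers were 3155 to 3221 and 2986 to 3162.

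One kind of change led the near copies. In 498 of the 829 (60.1%) an A of the more abundant tag was a C, and 457 of these 498 (91.8%) were at position 5, 8, 14, 15 or 16, counted from 1 at the 5′ end of the tag. G to T accounted for 132, C to A for 67 and G to A for 61. The G+C limit shapes this tally, as copies that a change took below it were not counted. Of the 498, 368 had a more abundant tag that was itself GC-rich. For 128 that tag had a G+C below 0.70, so the copy met the rule only through the change. The 2 near copies with the most reads are shown with their more abundant tags, with the differing base in capitals.
More abundant tag, first pair: ggcggcgActctggacgcgagcc
Near copy A8C: ggcggcgCctctggacgcgagcc
More abundant tag, second pair: gcggcgactctggAcgcgagcc
Near copy A14C: gcggcgactctggCcgcgagcc

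The A8C copy made up 23.0%, 26.1% and 26.2% of the reads of its pair in NAFLD 2, NAFLD 3 and normal 2. It had 0 reads in NAFLD 1 and normal 3, where 3 reads would be 0.0441% and 0.0917%, and 1 read in normal 1. The A14C copy made up 14.6%, 16.2% and 15.2% in the same 3 libraries and had 0 reads in the other 3. The shares were close within the set, whatever the group of the rat. Both pairs belong to group 1.

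The difference between NAFLD and normal liver was also present without the near copies. Their share was 0.0133%, 0.277% and 0.251% in NAFLD liver and 0.00353%, 0.176% and 0.00507% in normal liver. Without them the GC-rich share was 2.88%, 1.90% and 1.61% in NAFLD and 1.32%, 1.10% and 0.990% in normal liver, a ratio of 1.87 without overlap. Of the 417 GC-rich tags with an unadjusted p under 0.05, 1 was a near copy, and none of the 23 called with the set as a covariate was. The median log2 fold change was 1.63 over the 389 near copies tested and 0.93 over the other 2183 GC-rich tags tested. The second value was close to the 0.90 of all tags tested, near copies included. With the set as a covariate these 3 medians were 0.68, 1.10 and 0.84.

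Markers of cell types were followed by their miRNAs. The 3 hepatocyte miRNAs summed to 135462 to 148040 TPM in NAFLD and 188646 to 206798 TPM in normal liver, and 1 of the 3 had its groups apart, downwards. The 2 erythroid miRNAs found in the table summed to 3.66 to 9.999 TPM and 2.27 to 3.21 TPM, apart upwards as a sum and in 1 of 2 singly. Endothelial miRNAs summed to 11.7 to 23.5 and 8.26 to 20.7 TPM, stellate or fibroblast miRNAs to 137 to 160 and 84.5 to 139 TPM, smooth muscle miRNAs to 6.80 to 12.3 and 9.27 to 52.7 TPM, and immune miRNAs to 1.11 to 3.30 and 0.674 to 2.78 TPM, each with overlap as a sum. Singly, 1 of 2 endothelial miRNAs was apart downwards, and the stellate and smooth muscle miRNAs overlapped. The immune miR-142-3p had 1 read in every library. The immune miR-223-3p was at 0 reads in NAFLD 2 and normal 1, miR-155-5p in NAFLD 2, and the stellate miR-199a-5p in NAFLD 3 and normal 2, while miR-486 and miR-150-5p had no entry in the table. The part of cell composition and of RNA quality in the GC-rich share was not tested.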

How the data were processed

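The 6 libraries were made from small RNA of 18 to 30 nt cut from a gel and were sequenced on a Solexa platform. The authors deposited 1 table per library with each distinct clean read sequence and its count. Adaptors, low-quality reads and contaminants had been removed before that, and per the labels the builds named in the submitters' processing notes were Rnor_5.0 and rn5. No aligner was needed for the tables used here. PCR duplicates could not be removed, since the reads hold no molecular identifiers, so intervals and limits cover counting error only.

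The tables were joined by sequence, and each count was expressed per 1000000 clean reads of its library (TPM), as in the formula of the study. Every column of per-library values was used. Groups and replicate numbers were taken from the sample titles and the disease state in the labels. A group of tags is a connected set in which each tag shares any 16 bases with another. Merged sequences were extended from the most abundant tag of a group by overlaps that held at least 1% of the reads of that tag. Near copies were tags 1 substitution from a tag with at least 5 times the reads. The technical sets were formed from the substitution rate at the first 20 positions of 50 abundant tags. These were the most abundant tags whose share in every library was at least 0.25 of their mean share.

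Shares and group levels were compared with two-sided exact permutation tests over the 20 ways to split the libraries 3 against 3. Tags with at least 15 reads in all that passed filterByExpr were tested with the quasi-likelihood test of edgeR on the deposited counts, with Benjamini-Hochberg adjustment over all tags tested and a threshold of 0.05. Alternatives were TMM factors, DESeq2, limma on log2(TPM + 1) and log2(TPM + 0.1), other filters, and the technical set or the replicate number as a covariate. Further ones were leaving out each library, and other limits for reads, shared bases and G+C. The scripts were tested on simulated data. Python 3.11.15, edgeR 4.0.16, limma 3.58.1 and DESeq2 1.42.0 were used.

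The tags named singly were the 10 with the highest mean TPM, the most abundant tag of each of the 8 groups with the most reads, the 3 with the smallest p in each direction, and those identical to a RefSeq rat mature miRNA. The members and lists were chosen with earlier results of these data known. Same-numbered libraries correlated at 0.74, 0.72 and -0.59 in their deviations from the group means, so the numbers were not taken as pairs. Sequences of miRNAs, hairpins and windows at gene starts came from RefSeq tables of GRCr8, and coordinates are those of that build.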

Additional observations from a re-analysis of the deposited data

Results flagged for a closer look

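Tags outside the rule for the GC-rich tags showed a signal above that of the normal livers. GC-rich tags of 26 nt or more, 27703 of them, took 0.614%, 0.602% and 0.727% of clean reads in NAFLD 1, 2 and 3 and 0.106%, 0.277% and 0.0789% in normal 1, 2 and 3. The means were 0.647% ± 0.0690 and 0.154% ± 0.107 (SD, n = 3), a ratio of 4.20, with every NAFLD library above every normal one. Normal 2, the 1 normal library of the set with the higher substitution rate, stood apart from the other normal libraries. The ratio was 6.63 in the set with the lower rate and 2.40 in the set with the higher rate.

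GC-rich tags of 20 to 25 nt that end in CCA, which the rule left out, took 0.211%, 0.237% and 0.144% in NAFLD liver and 0.0776%, 0.0657% and 0.0486% in normal liver. The means were 0.197% and 0.0640%, a ratio of 3.08 without overlap.

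GC-rich tags of 18 and 19 nt took 1.03%, 0.612% and 0.388% against 0.382%, 0.122% and 0.144%. The means were 0.677% and 0.216%, and NAFLD 3 lay just above normal 1. GC-rich tags of 20 to 25 nt with under 30 reads, 110294 of them, took 0.415%, 0.613% and 0.458% against 0.186%, 0.273% and 0.135%, with means of 0.495% and 0.198%. None of these differences was tested, and all 4 share libraries and depth with the GC-rich tags of the report.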

How the results depend on the processing

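The difference in GC-rich share stayed above 0 under every alternative run, from 0.738 to 1.74 percentage points. So did the log2 ratio to the tags with G+C of 0.40 to 0.55, lowest at 0.17 against tags with G+C of 0.55 to 0.70, 0.26 as a median over tags and 0.56 against tags below the most abundant GC-rich tag. The number of groups was 168 with 14 shared bases and 132 with a read minimum of 100. In the replicate block the median log2 fold change was 1.15 and 0 tags were called. As the numbers did not pair the libraries, this is a value only. With leaving out each library the share difference ran from 0.819 to 1.34, the log2 ratio from 0.97 to 1.32, the median fold change from 0.90 to 1.29, and 0 tags were called. GC-rich tags higher at an unadjusted p under 0.05 in edgeR were also counted, with filters refitted each time. They were 177 of 2981 without NAFLD 1, 191 of 2827 without NAFLD 2 and 523 of 3029 without NAFLD 3. Without normal 1, 2 and 3 they were 424 of 3306, 739 of 3355 and 181 of 3394. Over all tags tested, the counts without NAFLD 1, 2 and 3 were 1144 of 22967, 936 of 21802 and 2157 of 22733. Without normal 1, 2 and 3 those counts were 2572 of 24748, 5289 of 25361 and 867 of 25562. The rise without normal 2 was thus also seen over all tags. Of 2572 GC-rich tags tested, 1 was called higher with DESeq2, 23 with the technical set and 27 with TMM factors and the set together. The last was an alternative chosen after seeing the data. Over all 19492 tags tested, 18, 187 and 240 were called higher, in the same order. The median log2 fold change was 0.31 with TMM factors, 0.20 with DESeq2, 0.68 with limma on log2(TPM + 1), 0.80 when every library needed 10 reads and 0.19 with TMM factors and the set.

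Of 323 values of the 22 tags named singly, 43 changed direction, most under scalings that lower the values of all tags, and none of those was called. The tag gcggcgactctggacgcgagcc went to -0.61 with TMM, -0.70 with DESeq2, -0.0505 and -0.0510 with limma at pseudocounts of 1 and 0.1, -0.0392 in the replicate block and -0.61 with TMM and set, and ran from -0.46 to 0.48 leaving out libraries. The tag ggcggcgactctggacgcgagcc went to -0.66, -0.74, -0.0742, -0.0748, -0.0741 and -0.60, and from -0.55 to 0.40. With TMM, DESeq2, and TMM with set in this order, tccctccgggggggtgtcggcg had -0.0125, -0.10 and -0.0502, gggcgcgcgccgcggctggacgag had -0.18, -0.27 and -0.19, cggcgactctggacgcgagccg had -0.36, -0.45 and -0.43, and ggcggcgactctggacgcgagccg had -0.36, -0.45 and -0.35, running from -0.13 to 0.62 leaving out libraries. In the same order gcggcggcgactctggacgcgagcc had -0.26, -0.36 and -0.36, cgcacggggtcggcggcgatg had -0.13, -0.23 and -0.30, and miR-1247-5p, acccgtcccgttcgtccccgga, had -0.29, -0.37 and -0.20. With DESeq2 gcggcgactctggacgcgagccg had -0.10 (-0.0144 with TMM and set) and agggacggccgggggcattcg had -0.0730. The tag ggggttcccggggttcgggg ran from -3.27 to 1.55 leaving out libraries. The cause of these changes beyond the scaling was not tested.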

Other observations

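Some tags just below the G+C limit were themselves found in 1 technical set. The tag cgcgccctcagatcagacgtg had 2 reads in NAFLD 1, 0 in normal 1 and 0 in normal 3, and 6233, 4829 and 2239 reads in NAFLD 2, NAFLD 3 and normal 2. Its GC-rich near copy A15C made up 13.99%, 13.88% and 14.05% of the pair in those 3 libraries. The tag was chosen after its values were seen.

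The near copies of longer forms had shares like those of the shorter ones. The A8C copy of ggcggcgactctggacgcgagccg made up 23.4%, 25% and 24.2% of its pair in NAFLD 2, NAFLD 3 and normal 2, and the A14C copy of gcggcgactctggacgcgagccg 14.7%, 15.2% and 15.8%. Both copies had 0 reads in NAFLD 1, normal 1 and normal 3, where 3 reads would be 0.0662% to 0.279% of a pair.

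Of the 4062 GC-rich tags, 7 had 0 reads in all normal libraries and 0 had 0 reads in all NAFLD libraries. In all 6 libraries 2875 tags (70.8%) were read, and 2377 had fewer than 100 reads in all.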
